A study of Mus musculus with 6 samples.

Results

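The Gimap genes (GTPases of immunity-associated proteins) encode small GTP-binding proteins related to septins and to the interferon-induced GTPases. They lie side by side in one cluster, are expressed mainly in lymphocytes and other blood cells, and most are anchored to intracellular membranes. The family is best known for keeping naive lymphocytes alive: loss of Gimap5 in the rat or the mouse leaves few peripheral T cells. The members considered here are the 8 genes Gimap1, Gimap3, Gimap4, Gimap5, Gimap6, Gimap7, Gimap8 and Gimap9, taken by name with every probe that carried one of these names. They were covered by 10 of 39429 probes and made up 8 of 30342 gene names on the array. Gimap4 had 3 probes and each other member had 1.

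The RNA came from splenic γδ T cells of Eomes-IRES-GFP mice (allele Eomestm1.1Twa, C57BL6 background), in which green fluorescent protein (GFP) is made from the same transcript as the T-box transcription factor Eomes. Eomes-positive cells were sorted as GFP+ and Eomes-negative cells as GFP-, both as CD3+ TCRγδ+ TCRβ- cells after depletion of cells bearing B220, CD4 or CD8β, and both groups carried the reporter allele. Each of 3 independent sorts pooled 4 to 6 spleens and gave 1 array per group, so that there were 3 Eomes-positive and 3 Eomes-negative arrays. Mice were 9, 9.5 and 7.5 weeks old in sorts 1, 2 and 3, and the RNA input was 9 ng in sorts 1 and 2 and 4 ng in sort 3. Because the groups were defined by the reporter and not by Eomes protein, Eomes itself checks the labels: its level was 5.31, 4.96 and 4.48 on the Eomes-positive arrays and 0.72, 0.88 and -1.14 on the Eomes-negative arrays.

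A level is the log2 signal of a probe minus the log2 of its array's 75th percentile, and all differences are Eomes-positive minus Eomes-negative on that log2 scale. Levels of different probes cannot be set against each other, because each probe binds with its own strength. Arrays of the same group correlated with r between 0.946 and 0.965 over the tested genes. The raw 75th percentile was 1581 to 1684 intensity units in sorts 1 and 2 and 534 and 549 in sort 3, and precision is limited by the number of arrays. The defining T cell transcripts Cd3d, Cd3e and Cd3g were measured on every array, and their differences lay at -0.06, -0.07 and -0.07. In whole sorted populations, fewer cells that carry a transcript and less of it per cell cannot be told apart.

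The probes mark out a cluster of 103.7 kb on chromosome 6 of the mm9 build, in the order Gimap8, Gimap9, Gimap4, Gimap6, Gimap7, Gimap1, Gimap5 and Gimap3. The Gimap8 probe lies at chr6:48610775-48610834 and the Gimap3 probe at chr6:48714463-48714522. Gimap6 and Gimap3 are probed on the minus strand and the others on the plus strand. The tables used here do not say which exon or transcript part each probe covers. For Gimap4, probe A_55_P1976387 is assigned to another RefSeq transcript than A_55_P1976376 and A_55_P2147831. The latter probes share the same transcript record and still had mean differences of unlike sign, neither of them called. The first 30 bases of the 3 Gimap4 probes are shown because their mean differences between the groups differ in sign.
Gimap4 probe A_55_P1976387, chr6:48640752-48640811: attcatgattctcttgctcaccaggaagga
Gimap4 probe A_55_P1976376, chr6:48641312-48641371: gactagaccttatttctattttctgcattt
Gimap4 probe A_55_P2147831, chr6:48641817-48641876: agatctcacaagtcaaataatccaggttga
The Gimap7 probe is shown because that gene had the greatest difference of the family, and the Gimap3 and Gimap5 probes because these genes are close paralogues in the mouse.
Gimap7 probe A_51_P448147, chr6:48674271-48674330: accttcgtgaggaagcagagaagaacatat
Gimap3 probe A_55_P2003221, chr6:48714463-48714522: caatgcgtgctttaaaactcggcgtttcag
Gimap5 probe A_51_P176365, chr6:48703501-48703560: attaatttcactctcatttgattcccatgg

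Among all pairs of the 10 probes, laid against each other without gaps, the Gimap9 probe and the first Gimap4 probe had the most matches less mismatches, with 27 of 45 bases shared and no shared run longer than 6 bases. Over the 30 bases shown next, 19 are shared and stand in capitals.
Gimap9 probe A_51_P377948: gTaCATGATcaTCTTGtTtACtcacAAaGA
Gimap4 probe A_55_P1976387: aTtCATGATtcTCTTGcTcACcaggAAgGA
Both stretches come from chromosome 6, and whether any probe also bound the transcript of another member was not tested.

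Every member was expressed in both populations, and none passed the test between them. All 10 probes were well above background in all of their spots on all 6 arrays, none was saturated, and the lowest level of any member on any array was 1.87, which is 3.66-fold above the array's 75th percentile. With limma and Benjamini-Hochberg adjustment over the 16413 tested genes, 0 of the 8 members were called higher and 0 lower at an adjusted p of 0.05, and 0 had an unadjusted p under 0.05. Of all tested genes, 2.77% were called (1.2% higher and 1.57% lower), and 12.2% had an unadjusted p under 0.05. The values of the 2 populations overlapped for all 8 members, while 18.2% of all tested genes had groups that did not overlap. The median difference was 0.17 over the members and -0.01 over all tested genes, of which the 5th and 95th percentiles were -0.95 and 0.74.

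**Figure D1:**
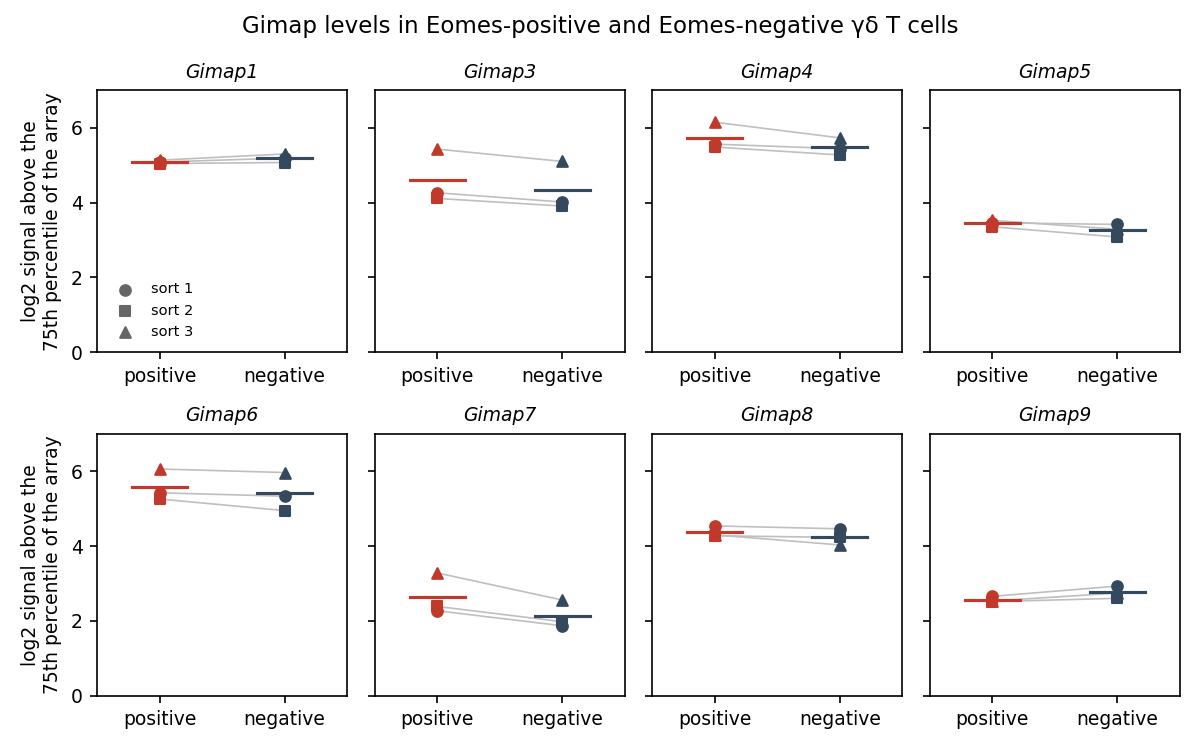
Level of each Gimap gene (log2 signal above the 75th percentile of the array) in Eomes-positive and Eomes-negative γδ T cells, with circles, squares and triangles for sorts 1, 2 and 3, grey lines between arrays of the same sort and bars for the means of 3 arrays. The lines are nearly level, and the values of the 2 populations overlap in every panel. Sort 3 lies above the other sorts in both populations for Gimap3, Gimap4, Gimap6 and Gimap7 and, by a smaller margin, for Gimap1.

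The members known for lymphocyte survival are described first. Gimap5, a protein of the lysosomal membrane, had levels of 3.46, 3.35 and 3.53 on Eomes-positive arrays and 3.42, 3.08 and 3.29 on Eomes-negative arrays. The Eomes-positive value was above its partner in each sort, but sort 1 of the Eomes-negative cells lay among the Eomes-positive values. The difference was 0.18 (SE 0.151, 95% interval -0.19 to 0.56, limma adjusted p = 0.822).

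Gimap3, the paralogue of Gimap5, acts with it in the survival of mouse T cells. Its levels were 4.26, 4.11 and 5.43 in Eomes-positive cells and 4.02, 3.91 and 5.10 in Eomes-negative cells. Both arrays of sort 3 stood above all others of this gene, so that the Eomes-negative array of sort 3 exceeded the Eomes-positive arrays of sorts 1 and 2. The difference of 0.26 had the widest interval of the family (-0.93 to 1.46, SE 0.484, limma adjusted p = 0.967), although within sorts it was close to constant, at 0.25, 0.20 and 0.33.

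Gimap1 is needed for mature T and B cells in the mouse. Its levels were 5.09, 5.05 and 5.14 in Eomes-positive cells and 5.19, 5.07 and 5.30 in Eomes-negative cells. Its SD over 3 arrays, 0.0453 in Eomes-positive and 0.114 in Eomes-negative cells, was the smallest among the members in each population, and all 3 sorts gave a small negative value. The difference was -0.10 (SE 0.133, 95% interval -0.43 to 0.23, limma adjusted p = 0.944), which leaves at most 1.17-fold more and 0.742-fold as much in Eomes-positive cells at the bounds of the interval.

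Gimap8 encodes a longer protein with several GTP-binding domains. Its levels were 4.54, 4.28 and 4.30 in Eomes-positive cells and 4.46, 4.23 and 4.03 in Eomes-negative cells. Sort 1 was the highest in both populations, unlike in Gimap3. The difference was 0.13 (SE 0.173, 95% interval -0.30 to 0.56, limma adjusted p = 0.944).

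Gimap4, which hastens the death of activated T cells in mice, had mean differences of unlike sign by probe, none of them called. Its brightest probe, A_55_P2147831, had levels of 5.57, 5.49 and 6.15 in Eomes-positive cells and 5.44, 5.28 and 5.73 in Eomes-negative cells. This probe was higher in Eomes-positive cells in every sort, by 0.12, 0.21 and 0.42, with a difference of 0.25 (SE 0.239, 95% interval -0.34 to 0.84, limma adjusted p = 0.874). Probe A_55_P1976387 had levels of 2.92, 2.25 and 3.11 in Eomes-positive cells and 3.07, 2.62 and 3.21 in Eomes-negative cells, and probe A_55_P1976376 had 3.40, 2.65 and 3.71 in Eomes-positive cells and 3.45, 2.82 and 3.78 in Eomes-negative cells. Both of these were lower in Eomes-positive cells in every sort, with mean differences of -0.20 and -0.09. Their 95% intervals were -0.92 to 0.52 and -1.01 to 0.82 (limma adjusted p = 0.959 and 0.993).

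Within an array, the ratio of the brightest Gimap4 probe to A_55_P1976387 was 0.45 higher on the log2 scale in Eomes-positive cells, by 0.27, 0.58 and 0.51 in sorts 1, 2 and 3. The two-sided exact permutation test of 3 against 3 arrays gave p = 0.2 (adjusted p = 0.4 over the 3 probe pairs), where the smallest p it allows is 0.1. Against A_55_P1976376 the ratio was 0.35 higher (exact permutation p = 0.3, adjusted p = 0.4). The direction of the Gimap4 difference therefore depends on the probe, and with all 3 probes averaged it was -0.02.

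Gimap6, known to bind the autophagy protein Gabarapl2, had levels of 5.43, 5.26 and 6.06 in Eomes-positive cells and 5.34, 4.95 and 5.97 in Eomes-negative cells. Sort 3 was again the highest in both populations, and each Eomes-positive array was above its partner, by 0.09, 0.31 and 0.09. The difference was 0.17 (SE 0.341, 95% interval -0.68 to 1.01, limma adjusted p = 0.972).

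Gimap7, whose human counterpart is known to stimulate GTP hydrolysis by GIMAP2, had the greatest difference of the 8 members. Its levels were 2.27, 2.39 and 3.28 in Eomes-positive cells and 1.87, 1.98 and 2.56 in Eomes-negative cells. Each Eomes-positive array exceeded its partner, by 0.40, 0.41 and 0.72, but sort 3 of the Eomes-negative cells lay above sorts 1 and 2 of the Eomes-positive cells. The mean difference was 0.51, or 1.43-fold (SE 0.341, 95% interval -0.33 to 1.35, limma adjusted p = 0.738), and 81.0% of all tested genes had a smaller difference in size.

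Gimap9 had levels of 2.66, 2.52 and 2.53 in Eomes-positive cells and 2.93, 2.60 and 2.75 in Eomes-negative cells. With Gimap1 it was one of the members that were lower in Eomes-positive cells in all 3 sorts. The difference was -0.19 (SE 0.148, 95% interval -0.56 to 0.17, limma adjusted p = 0.795).

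All 8 members kept their direction across the 3 sorts, 6 of them higher and 2 lower in Eomes-positive cells, with Gimap4 taken at its brightest probe. Of all tested genes, 52.4% kept theirs. The sorts shifted both populations together, so the same comparison was made with the sort as a block, which compares arrays within a replicate number. The standard error then fell to between 0.0893 and 0.113 for the members, against 0.133 to 0.484 without the block. Still 0 of 8 members were called, while 7.98% of all tested genes were (3.66% higher and 4.33% lower). The Eomes-positive array of sort 2 lay on another slide than its partner, so slide and group cannot be told apart in that pair.

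With the sort as a block, 2 members, Gimap7 and Gimap3, had an unadjusted limma p under 0.05, where 26.2% of all tested genes did. Gimap7 then had an interval of 0.20 to 0.82 and an adjusted p of 0.0816, and Gimap3 an interval of 0.02 to 0.51 and an adjusted p of 0.174 (limma). Within sorts the whole interval lay inside a 2-fold change in either direction for all 8 members, and without the block for 5 of 8. The exceptions without the block were Gimap3, Gimap6 and Gimap7.

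**Figure D2:**
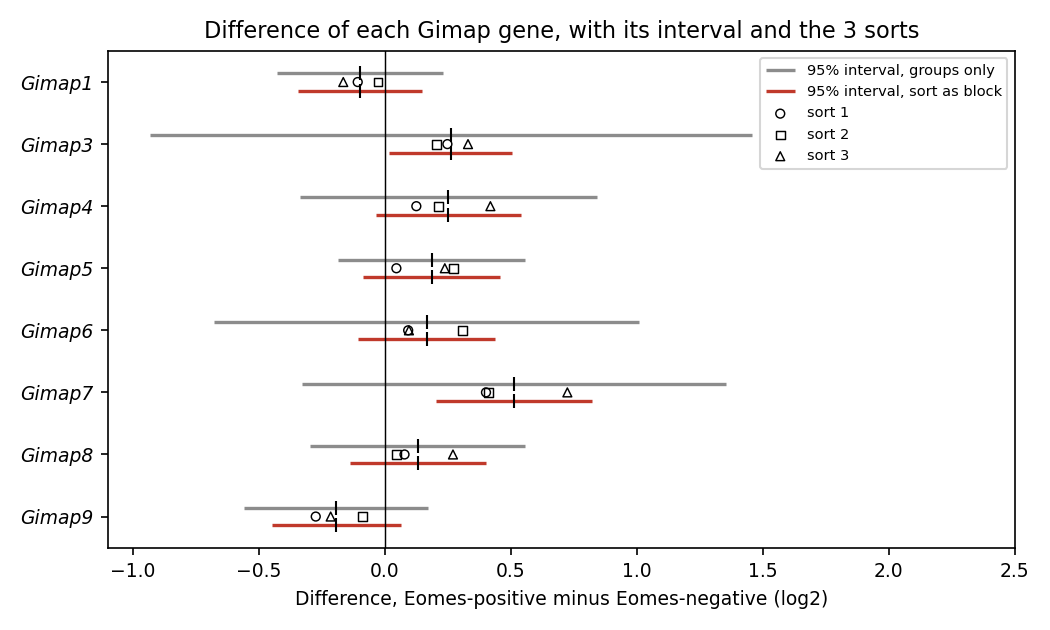
Difference of each Gimap gene, Eomes-positive minus Eomes-negative (log2), with 95% intervals from the fit of groups only (grey) and from the fit with sort as a block (red), ticks for the mean difference and open symbols for the 3 sorts. The open symbols of each gene lie on the same side of 0, and the red intervals leave out 0 for Gimap7 and Gimap3, neither of which was called after adjustment.

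**Figure D3:**
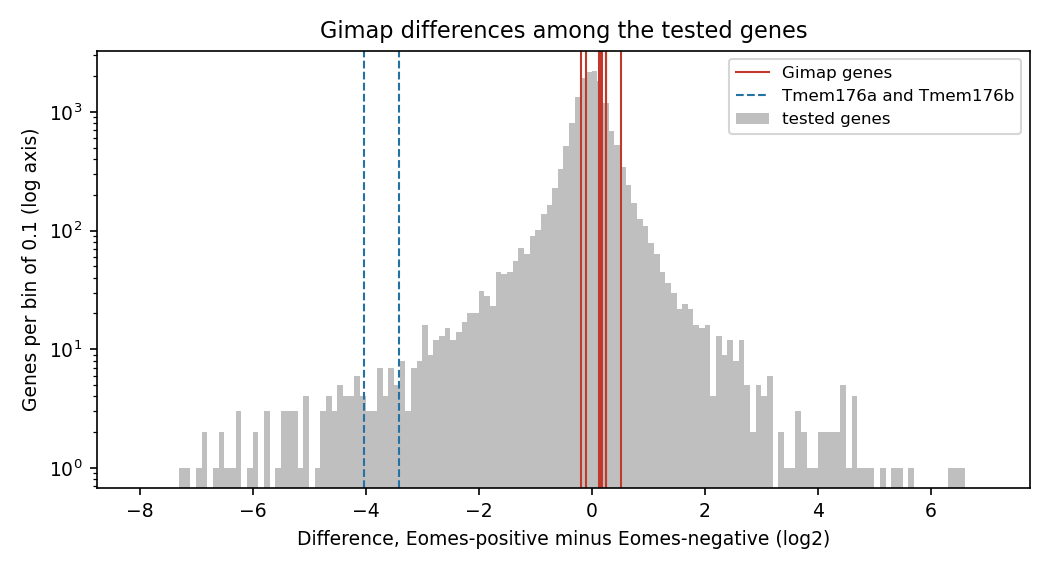
Number of tested genes by difference, Eomes-positive minus Eomes-negative (log2, bins of 0.1, log axis for the counts), with red lines at the 8 Gimap genes and dashed blue lines at Tmem176a and Tmem176b. The Gimap lines fall between -0.19 and 0.51, inside the 5th and 95th percentiles of -0.95 and 0.74, and the Tmem176 lines fall at -4.04 and -3.41.

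Each member was also set against the mean of the other 7 on the same array, which removes a shift common to the family. Gimap7, relative to the others, was 0.41 higher in Eomes-positive than in Eomes-negative cells (0.37, 0.28 and 0.59 by sort, exact permutation p = 0.2). Gimap9 differed by -0.39 (-0.40, -0.29 and -0.49 by sort, exact permutation p = 0.3) and Gimap1 by -0.29 (-0.21, -0.22 and -0.43 by sort, exact permutation p = 0.2). For Gimap4, at its brightest probe, the relative levels of the groups did not overlap, with a difference of 0.11 at the smallest p the design allows (exact permutation p = 0.1, adjusted p = 0.533 over 8 members). The other 4 members differed by between -0.02 and 0.12. With all 3 of its probes averaged, the relative difference of Gimap4 was -0.15 in place of 0.11. Leaving out 1 array moved the relative difference of Gimap7 to between 0.22 and 0.57, that of Gimap9 to between -0.54 and -0.20, and that of Gimap3 to between -0.18 and 0.42. None passed the adjustment. This permutation does not use the pairing by sort, and a paired test of the relative levels was not run.

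Gimap3, Gimap4, Gimap6 and Gimap7 had the greatest shifts in sort 3, upward in both populations. Relative to the mean of sorts 1 and 2, Gimap3 was higher in sort 3 by 1.24 in Eomes-positive cells and 1.14 in Eomes-negative cells. Averaged over the groups its shift was 1.19, Gimap7's was 0.79, Gimap6's 0.77 and Gimap4's 0.50, while Gimap1, Gimap5, Gimap9 and Gimap8 shifted by 0.12, 0.08, -0.04 and -0.21. The median of all tested genes was -0.03, with 5th and 95th percentiles of -1.26 and 1.10, so that Gimap3 lay above 95.7% of genes. Sort 3 differed from the others in mouse age, RNA input and slide, and these cannot be told apart.

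**Figure D4:**
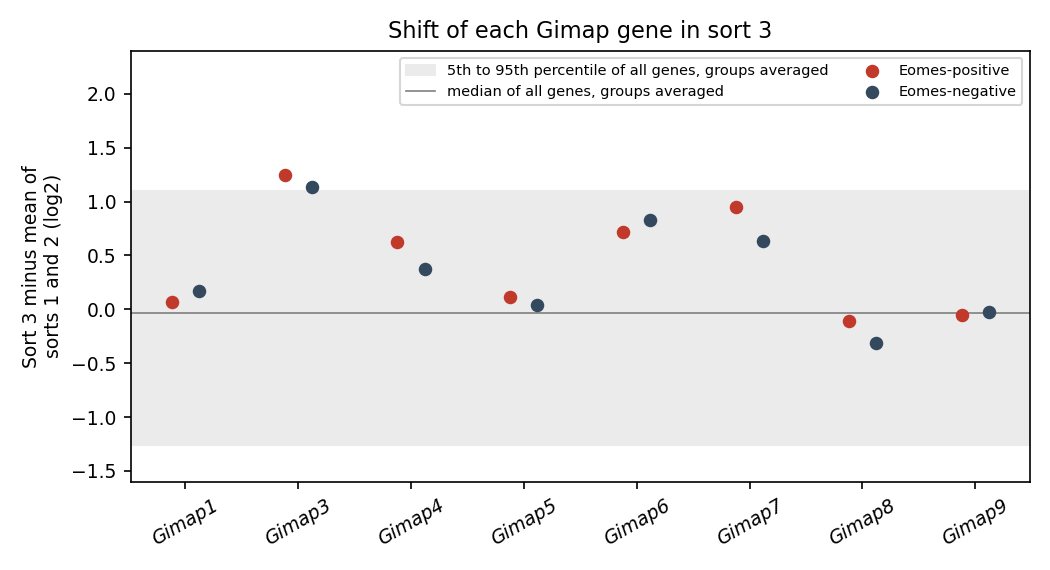
Level in sort 3 minus the mean level in sorts 1 and 2 (log2) for each Gimap gene in Eomes-positive and Eomes-negative cells, with the 5th to 95th percentile and the median of all tested genes as a band and a line. Both populations shift together, upward for Gimap3, Gimap4, Gimap6 and Gimap7 and by -0.32 to 0.17 for the other members.

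Beside the cluster, 1 gene was called. Within 500 kb of the cluster lay 18 other named genes, of which 9 were tested. Of all tested genes 2.77% were called. Of the 9 neighbours, 3 had an unadjusted limma p under 0.05 (Tmem176a, Tmem176b and Lrrc61), where 12.2% of all tested genes did. The groups did not overlap for 5 of the 9, where 18.2% of all tested genes had no overlap. Tmem176a, called lower in Eomes-positive cells, and Tmem176b, its divergent neighbour, encode related membrane proteins known from dendritic cells. Their probes lie 79.6 kb and 69.4 kb beyond the Gimap3 probe.

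Tmem176a had levels of -1.37, 0.96 and -0.07 in Eomes-positive cells and 3.06, 4.10 and 4.48 in Eomes-negative cells. The groups did not overlap, and the difference was -4.04 (SE 0.672, limma adjusted p = 0.0430). Tmem176b had levels of -0.30, 1.64 and 1.32 in Eomes-positive cells and 3.50, 4.39 and 4.99 in Eomes-negative cells. Its difference of -3.41 (SE 0.625) missed the test (limma adjusted p = 0.0586) and passed it in the fit blocked by sort (adjusted p = 0.00957). Its second probe was measured on every array too, with a difference of -3.68.

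Relative to the mean of the 8 Gimap genes on the same array, Tmem176a was lower in Eomes-positive cells by 4.50, 3.30 and 4.76 in sorts 1, 2 and 3 on the log2 scale, and Tmem176b by 3.88, 2.92 and 3.88. For both genes these relative levels did not overlap between the groups (exact permutation p = 0.1, the smallest possible, adjusted p = 0.1 over the pair). Their own levels already lay apart between the groups, by more than the Gimap mean varied over the arrays (3.89 to 4.55). The test could therefore not have come out otherwise and adds no evidence to the levels themselves. The adjustment covers only this pair and not the other tested neighbours. Leaving out 1 array or 1 sort ended the Tmem176a call in 8 of 9 cases, all but that without Eomes-positive array 2, with limma adjusted p from 0.0890 to 0.277 in those 8. Its difference then lay between -4.60 and -3.43 over the 9 cases.

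The other 7 tested neighbours were not called. Lrrc61 had a difference of 0.38 (limma adjusted p = 0.283), Repin1 of 0.48, Tra2a of 0.32, Krba1 of 0.27, Malsu1 of -0.02, Doxl1, measured on 4 of 6 arrays, of -0.39 and Zfp467, whose 4 probes differed in direction, of -0.32 at its brightest probe. Between the members lay 2 probes with no gene symbol, with differences of 0.26 and 0.35. Neither was called in the fit over probes, which called 2.41% of them.

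**Figure D5:**
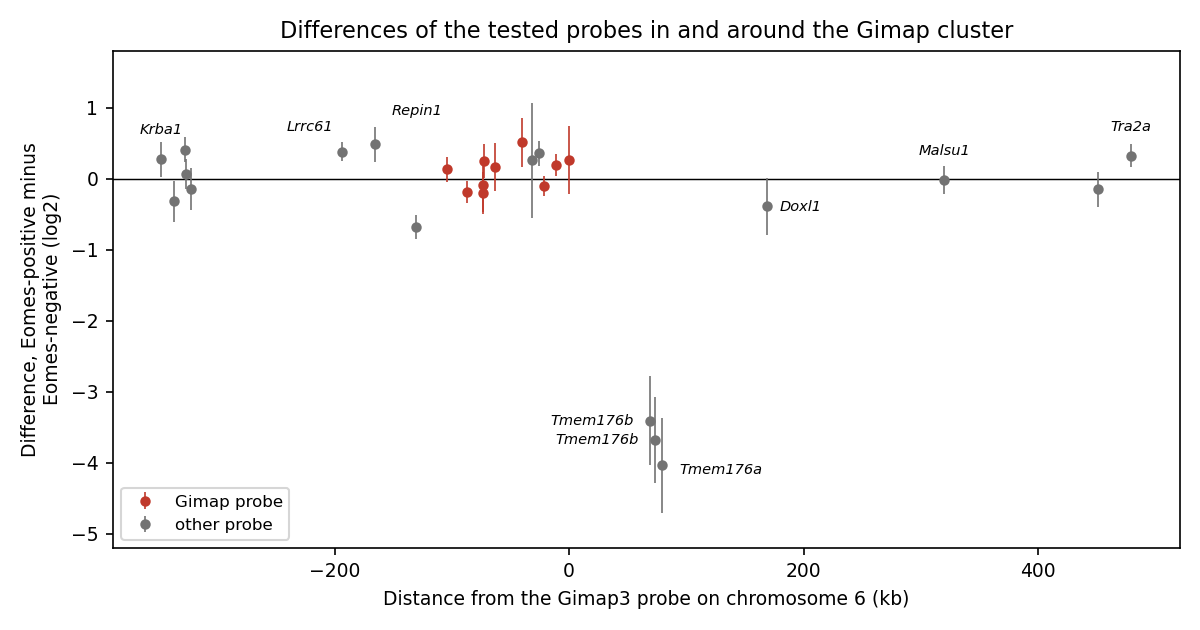
Difference of each tested probe, Eomes-positive minus Eomes-negative (log2, points with SE), by distance in kb from the Gimap3 probe on chromosome 6, with Gimap probes in red. The 10 Gimap probes lie between -0.20 and 0.51, and the 3 probes of Tmem176b and Tmem176a, 69.4 to 79.6 kb away, lie between -4.04 and -3.41.

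Markers of other cells were read beside this. Of the natural killer and innate lymphoid markers, 3 of 8 tested rose in Eomes-positive cells (Klre1, Klri2 and Styk1), where 1.2% of all tested genes did. Ncr1, Klra8 and Klra4 differed by 1.70, 1.64 and 0.97 without a call, and Gzma and Itga2 by -0.14 and 0.02. Of the αβ T cell markers 1 of 7 fell (Cd8b1), where 1.57% of all tested genes did. These lists, like those below, were chosen with earlier results of these data known, so such counts are no test of them. With the sort as a block 4 of 8 natural killer and innate lymphoid markers were higher, with Klra4 added (limma adjusted p = 0.0344). Of the αβ T cell markers 2 of 7 were then lower, with Foxp3 added (limma adjusted p = 0.0495). Of all tested genes, 3.66% were higher and 4.33% lower in that fit. Of the γδ T cell list, 2 of 9 fell (Tcrg-V5 and Tcrg-V6). No B cell (0 of 7), myeloid (0 of 8), endothelial (0 of 2) or erythroid (0 of 4) marker was called by limma, with 1, 0, 1 and 0 of them at an unadjusted p under 0.05. In the fit blocked by sort, Cd79b, 1 of the 7 B cell markers, was lower in Eomes-positive cells (difference -0.92, limma adjusted p = 0.0217, against 0.0598 without the block). Summed myeloid signal, as a multiple of the 75th percentile, ranged from 13.9 to 272 on Eomes-positive arrays and from 19.1 to 265 on Eomes-negative arrays. The myeloid marker S100a8 stood at 5.89 and 5.64 on the Eomes-positive and Eomes-negative arrays of sort 2, and at most at -1.52 on the others. The summed erythroid and platelet signal varied widely too, from 18.2 to 208 on Eomes-positive and from 17.7 to 163 on Eomes-negative arrays. The summed B cell signal was 7.27 to 11.5 on Eomes-positive and 14.8 to 17.9 on Eomes-negative arrays. The endothelial markers Cdh5, Tek, Tie1, Cldn5 and Emcn were not well above background on any array. The part of such cells in the Gimap and Tmem176 values was not tested.

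Promoters were compared for the binding motif of T-box factors, the family of Eomes. RefSeq promoter windows (GRCm38.p6, 250 bases before to 50 after the start) were found for all 8 members. The core of the T-box half-site, TCACAC (reverse complement GTGTGA), was found on either strand in the windows of 2 of 8 members, Gimap7 and Gimap8, and 16.4% of the 27025 genes with a window hold it. The 120 bases before the start are shown for both, with the T-box core in capitals.
Gimap7, GRCm38.p6 chr6:48718501-48718620, plus strand: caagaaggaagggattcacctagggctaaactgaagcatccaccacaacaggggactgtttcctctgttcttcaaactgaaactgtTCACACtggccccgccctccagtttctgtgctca
Gimap8, GRCm38.p6 chr6:48647114-48647233, plus strand: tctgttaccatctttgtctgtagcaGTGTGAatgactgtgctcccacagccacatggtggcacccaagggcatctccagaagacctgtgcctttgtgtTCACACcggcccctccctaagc
Gimap7 had the greatest difference of the family, 0.51, and Gimap8 a difference of 0.13. One of the windows of Tmem176a and one of Tmem176b hold the core too, at one and the same position, since the windows of these divergent genes overlap. The ETS core GGAAGT (reverse complement ACTTCC) occurred in 4 of 8 members, Gimap1, Gimap5, Gimap6 and Gimap9, against 26.5% of genes. The RUNX site ACCACA (reverse complement TGTGGT) occurred in 3 of 8, Gimap1, Gimap4 and Gimap7, against 18.9% of genes. A match is a run of letters and not a measured binding site.

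The genes known to work with Gimap proteins were not called either. Of 13 tested partners and regulators of cell death and autophagy, 0 were called higher and 0 lower by limma, where 2.77% of all tested genes were called. A count of 0 among 13 is near that share. Of the 13, 0 had an unadjusted p under 0.05, where 12.2% of all tested genes did, and the median difference was 0.05. With the sort as a block 0 were called, and 2 of 13 had an unadjusted limma p under 0.05, where 26.2% of all tested genes did. Hspa8, a chaperone, had a difference of 0.17 and Gabarapl2, the partner of Gimap6, of -0.01. The Bcl2 family gene Bcl2 had 0.05 and Mcl1 had 0.14.

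Of 19 genes of naive and quiescent T cells, 0 were called by limma (6 of 19 at an unadjusted p under 0.05, where 12.2% of all tested genes were), with a median difference of -0.21 against -0.01 over all genes. With the sort as a block 6 of 19 were lower in Eomes-positive cells, where 4.33% of all genes were: Ccr7, Igfbp4, Il7r, Klf2, Lef1 and S1pr1. Klf2, a transcription factor of quiescent T cells, had a difference of -0.65 and Btg1, an antiproliferative factor, of -0.09. Chosen after its values were seen, Il7r, the receptor for the survival cytokine interleukin-7, had levels of 4.37, 3.50 and 4.04 in Eomes-positive cells and 5.56, 5.14 and 5.48 in Eomes-negative cells, with a difference of -1.42 (limma adjusted p = 0.0600, and 0.0138 with the block). The groups did not overlap for Il7r, whereas they did for every Gimap gene.

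Other GTPases of related build gave separate results. Of 18 guanylate-binding, immunity-related and Mx GTPases, which are induced by interferons, 0 were called (6 of 18 at an unadjusted p under 0.05, where 12.2% of all tested genes were), with a median of -0.20. Ifi47 had a difference of -0.27 and Tgtp2 of -0.96. With the sort as a block 1 of 18 was higher, Gbp3, and 3 of 18 were lower, Iigp1, Tgtp1 and Tgtp2, where 3.66% of all genes were higher and 4.33% lower. Among septins, cytoskeletal GTP-binding proteins tested under 11 names, Septin4 rose by 2.35 (SE 0.382, limma adjusted p = 0.0410) in Eomes-positive cells, a call that was lost when any 1 array or sort was left out. Septin8 fell by 4.14 (limma adjusted p = 0.0343) and by 3.50 under its older name Sept8 (limma adjusted p = 0.00961), which is the same gene. With the sort as a block Septin11 was lower as well (difference -0.63, limma adjusted p = 0.0362).

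The genes closest to Gimap7 in pattern over the 6 arrays were Fam98b, Rpl34-ps1, Cc2d1a, Arid3a and Mcm2, among 10578 candidates. The root mean square distance of their centred levels from those of Gimap7 was 0.0878 for Fam98b and 0.121 to 0.125 for the others. The likeness rests on 6 arrays that share sorts. None of these genes was called, which their choice by likeness to Gimap7, itself not called, made likely beforehand.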

How the data were processed

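The 6 one-colour arrays were read from the deposited scanner files, whose intensity values, per the file headers, were made with Agilent Feature Extraction 10.7.3.1 on a linear scale after background subtraction, without normalization between arrays. The flags for signal above background, saturation and outliers are other columns, written by that software per the file headers. The authors' deposited intensity table served as an alternative. Its log2 offset from the scanner values was constant within an array for measured probes (interquartile range at most 0.0034). Per the labels' protocols, RNA was amplified once before labelling.

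Unflagged spots of a probe (4 per probe at most) were averaged as log2 intensity and the array's 75th percentile was subtracted. A probe counted as measured if well above background in no fewer than 50% of its spots on that array. RefSeq accessions named 27508 of 39429 probes, and 11921 kept the name in the file. Each gene took its brightest probe. The 16413 genes measured on 3 or more of the 6 arrays entered limma (version 3.58.1; R 4.3.3; data.table release 1.17.8; statmod 1.5.0) with a model of group only, with Benjamini-Hochberg adjustment at 0.05. Probe differences came from the same fit over 21131 probes. The fit was tested on simulated data: of 100 genes changed 2-fold 18% were recovered, of 100 changed 4-fold 70%, among 16413 genes, with 3 false calls. The simulated errors were independent between arrays, unlike those of real arrays from 1 sort, so these rates need not hold here. A fit with the sort as a block was not simulated. Same-numbered arrays come from 1 sort, per the labels, and their deviations from the group means correlated at 0.812, 0.818 and 0.808, so the sort was also used as a block. P-values of the group-only fit and of the exact permutation tests rest on the spread between arrays, including shifts that both groups of a sort share. Those with the sort as a block rest on the spread of the difference between these sorts.

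Named were all members and probes, the neighbours within 500 kb, Eomes, the 5 genes nearest to Gimap7, and from each list up to 4 called genes or the 2 with the highest signal; values of further list genes named in the text were seen before they were chosen. The members and lists were chosen with earlier results of these data known. Python 3.11.15 (pandas 2.3.3, matplotlib 3.10.9) searched the motifs and drew the figures.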

Additional observations from a re-analysis of the deposited data

How the results depend on the processing

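The 0 calls among the 8 Gimap genes held under all 20 other settings run, in both directions. Their median difference of 0.17 lay between -0.016 and 0.287 when arrays or sorts were left out (lowest without Eomes-positive array 3), and it was 0.27 with median scaling, which moved the median of all genes by 0.10. Gimap7 stayed higher in Eomes-positive cells in all 20 settings, between 0.19 and 0.72, with adjusted p from 0.0806 to 1.0. The direction turned for Gimap4 with all probes averaged (-0.0152), for Gimap3 without Eomes-positive array 3 (-0.154, where leaving out others gave up to 0.640), and for Gimap6 without Eomes-positive array 3 (-0.0749) or without array 2 of the Eomes-negative cells (-0.0686, others up to 0.441). It turned for Gimap4 probe A_55_P1976376 with median scaling (0.00371), slide as a block (0.124), without Eomes-positive array 2 (0.208) and without Eomes-negative array 3 (0.122, others from -0.361), and for probe A_55_P1976387 with slide as a block (0.00626) and without Eomes-positive array 2 (0.0545, others from -0.379). The cause was not tested. Over all genes, 197 calls higher and 257 lower became 92 and 154 with no filter on dim probes, 600 and 710 with sort as a replicate block, and 1063 and 1131 with sort as a random block. They were 57 to 101 higher and 94 to 180 lower with 1 array left out, 41 and 28 without sort 3 and 0 and 0 without sort 1 or sort 2, and 166 lower among genes measured on all 6 arrays. The 1 neighbour called lower, Tmem176a, became 2 with Tmem176b under median scaling, normexp background, mean of probes, replicate, random or slide block, and trend and robust variances, 0 with no filter, and 0 to 1 with arrays left out; 1 neighbour was higher with the random block. In the other lists, without the marker lists and with Septin8 and Sept8 counted as separate names, 1 call higher and 2 lower became 0 and 1 with no filter, 2 and 12 with the replicate block and 2 and 15 with the random block; slide as a block left 0 higher, and leaving out arrays left 0 higher and 0 to 2 lower. Calls that changed with sort as a replicate block are given beside their results. Slide 2 held 1 array, Eomes-positive array 2, whose partner lay on slide 1. Within-slide values therefore exist for slides 1 and 3: Gimap7 had 0.35 and 0.72 and Tmem176a -4.95 and -4.55. The slide 1 value sets Eomes-positive array 1 against the mean of Eomes-negative arrays 1 and 2, and so mixes sorts.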
